A study of Petrolisthes cinctipes with 164 samples.

Results

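The 100 probes described here, from a cDNA array for the porcelain crab Petrolisthes cinctipes, were chosen because they differed strongly between single pairs of crabs while their average over pairs hardly moved with heat stress. For each probe, the differential was the log2 level of a heat stressed crab minus that of the control crab of the same time and replicate number, averaged over the 2 arrays of the pair. Of 13818 probes, 11993 had a mean differential between -0.25 and 0.25 at 1 and 2 h, at 12 and 18 h and at 24 and 30 h and were not among 6 probes left out by name. From these, the 100 with the largest standard deviation (SD) of the differential over the 29 pairs of those time points were taken. The SD over these 29 pairs and the near-zero averages are therefore how the probes were picked and not a result, and the tests of variation between pairs and of heat stress that are read as results come from 0.5, 4 and 6 h, whose 12 pairs the choice left aside.

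Crabs caught at Cape Arago in Oregon were either warmed from 11 to 30 °C within 4 h or kept at 11 °C for those 4 h, and all then recovered together at 11 °C. Each of the 82 crabs, 41 per treatment, was sampled once at 0.5, 1, 2, 4, 6, 12, 18, 24 or 30 h of recovery, with 3 to 5 pairs per time point. Total RNA of both crabs of a pair was labelled with Cy5 and Cy3 and hybridised together, on array a and again on array b with the dyes exchanged. The labels give no sex, age or tissue for the crabs. Probes are known here by plate position alone, without gene names, so no marker of a tissue could be checked.

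Petrolisthes cinctipes lives under stones between the tide lines, where the body temperature of a crab can climb steeply during a low tide on a warm day. Warming of this kind calls up a shared response in many animals, in which genes for protein-folding chaperones rise. Against that shared response stand transcripts whose level differs from one wild-caught animal to the next under the same treatment. On an array where both RNAs compete for each spot, such a transcript gives a differential that is high in some pairs and low in others.

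All differentials and levels below are on a log2 scale, so that 1 unit is a doubling of intensity. A level is given after subtraction of the median of its channel over all probes and averaged over both dyes. Channel medians of the deposited values lay between 6.77 and 9.17, and the medians of the 2 channels of an array differed by at most 0.0863. Title and description disagreed on treatment or time in 21 samples. For 3 pairs (4 h replicate 2 and 6 h replicates 3 and 4) the description gave the opposite treatment for both crabs, and the title was used. Over all probes the differentials of arrays a and b correlated within a pair with r between -0.47 (4 h replicate 3) and 0.76 (6 h replicate 4), and r was below 0 in 8 of 41 pairs. At 0.5 h, replicate 5 correlated with the mean of the other 4 pairs of its time point at r = -0.44. In whole samples, fewer cells of a type and less RNA per cell cannot be told apart.

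The chosen probes fell into a few blocks that rose and fell in the same pairs. When they were joined by the correlation of their differentials over the 29 pairs and the tree was split at r = 0.5, 77 probes formed group A, 7 formed group B, 6 formed group C, 6 formed group D, and 4 joined no group of 5 or more. The largest group also counted 77 probes when the tree was split at r = 0.4, 0.6 or 0.7.

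**Figure D1:**
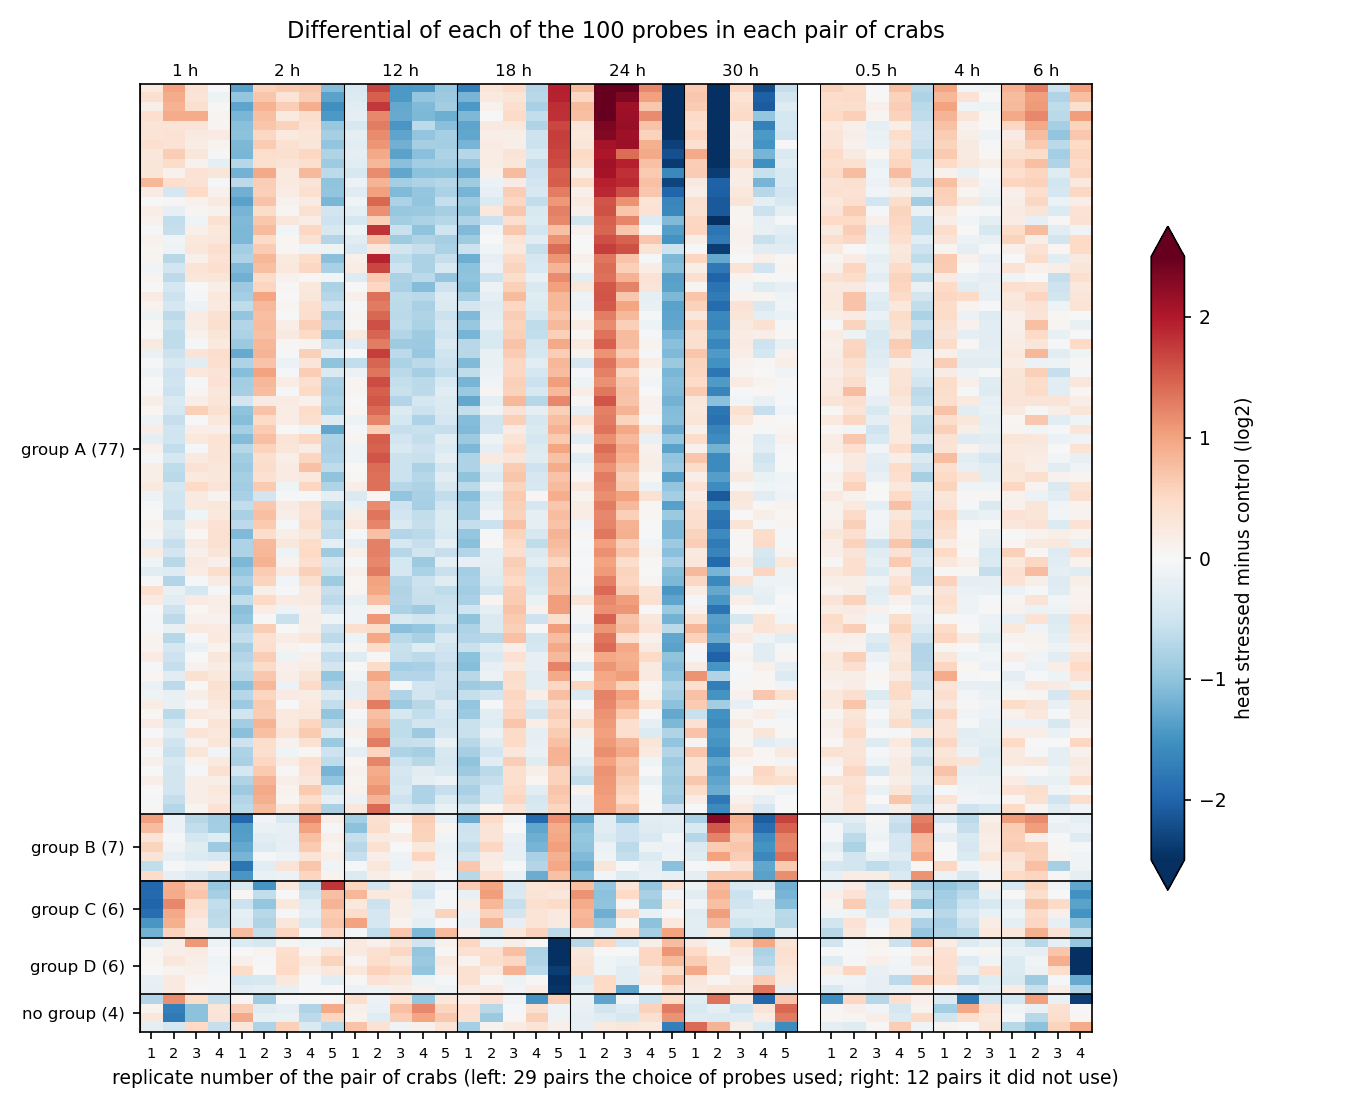
Each row is 1 of the 100 probes, ordered by group, and each column 1 pair of crabs; the colour gives the differential, heat stressed minus control, in log2 units, and is capped at 2.5 in either direction. The 29 pairs used for the choice stand on the left and the 12 pairs not used on the right. Group A forms vertical stripes of 1 colour through its 77 rows, such as 24 h replicate 2 in red and 30 h replicate 2 in blue, and group D is dark blue at 18 h replicate 5 and 6 h replicate 4.

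In the 12 pairs that played no part in the choice, the probes again varied more than most. Their median SD was 0.360 (jackknife standard error over pairs 0.0364), beside 0.201 over all 13818 probes, and 99 of the 100 lay above the median probe. The excess was smaller than in the pairs that picked them, where the median SD was 0.687 beside 0.237. It did not place the probes at the top of the table: 24 lay above the 90th percentile of all probes (0.449), 9 above the 95th (0.608) and 4 among the 100 largest SDs. The probes were also bright, with a median level of 2.26 beside 0.02 for all probes, and 72 stood among the brightest 25% of probes. Those 72 had a median SD of 0.349 over the 12 pairs, beside 0.305 for the 3383 other probes of that brightness.

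**Figure D2:**
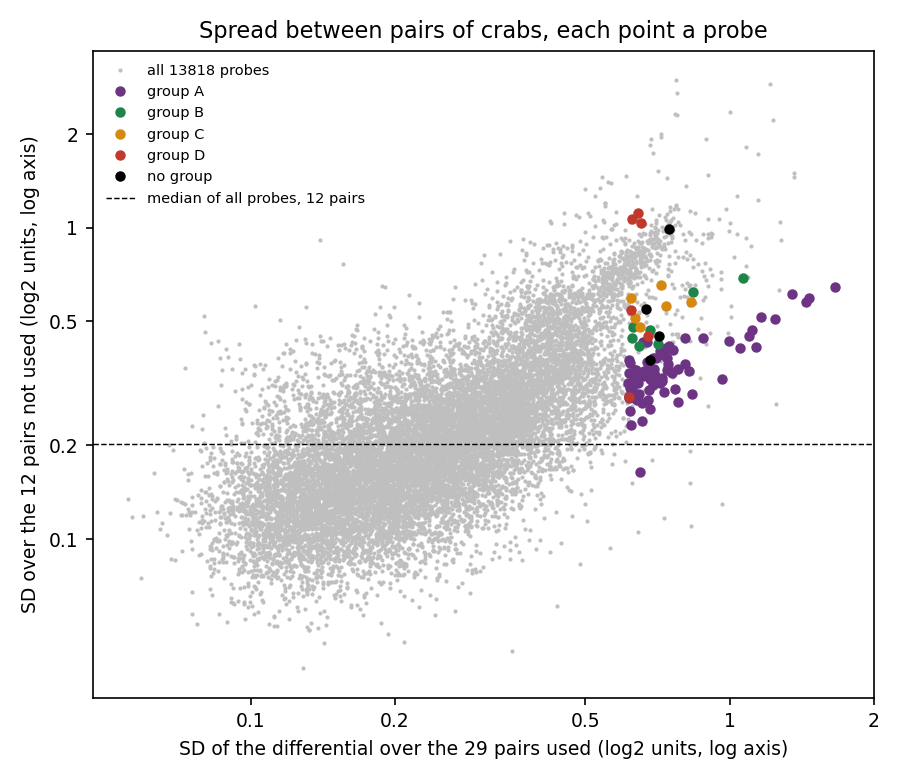
Each point is a probe; the horizontal axis gives the SD of its differential over the 29 pairs used for the choice and the vertical axis the SD over the 12 pairs not used, both in log2 units on log axes, with the 100 chosen probes coloured by group. All chosen probes but 1 lie above the dashed line, the median of all probes over the 12 pairs (0.201), and the 3 highest of them belong to group D.

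Whether a probe's differential changed from pair to pair by more than its 2 arrays disagreed was tested in the 12 pairs with limma's moderated F-test, comparing pairs within their time point (9 degrees of freedom), with a dye term and Benjamini-Hochberg adjustment over all probes. Of the 100 probes, 44 had an adjusted p under 0.05, against a background of 11.5% of all probes (1589 of 13818). Without adjustment, 83 of the 100 and 3498 of all probes were under 0.05. The median F was 3.88 for the chosen probes and 1.49 for all. The error in this test is that between arrays of the same RNAs, so it speaks of these pairs of crabs and not of crabs in general. Among probes above the median level, the count was 48 of 95 beside 22.5%.

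The count rested on certain pairs. Without the 4 pairs of 6 h, 0 of the 100 and 0 of all probes passed in limma (76 and 1519 without adjustment), and without the 5 pairs of 0.5 h, 17 passed (background 7.82%). Leaving out 0.5 h replicate 5 alone brought the count to 22 (background 9.47%) and leaving out 6 h replicate 4 alone to 23 (background 4.20%). The background thus moved with the pairs left out too. No adjusted p under 0.05 given below for a single probe was kept without the 6 h pairs. Taken by itself, 0.5 h gave 16 of the 100 (background 2.82%), 6 h gave 29 (background 14.8%), and 4 h gave 0 of the 100 and 0 of all probes (16 and 609 without adjustment).

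The variation between pairs also stood above the disagreement of arrays in plain numbers. The array SD, the spread that the difference between arrays a and b gives once the dye effect is taken out, had a median of 0.209 over the 12 pairs for the chosen probes and 0.164 for all. The SD between pairs exceeded it in 100 of 100 chosen probes, beside 72.0% of all probes. The median ratio of the SD between pairs to the array SD was 1.71, beside 1.21. Among the brightest 25% of probes, chosen and other probes differed less. The 72 chosen probes there had a median SD between pairs of 0.349 and a median array SD of 0.207 over the 12 pairs. The 3383 other probes there had 0.305 and 0.205. All these numbers come from the same arrays as the F-test and are no separate evidence.

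Group A held most of the probes. Over its 77 probes, the mean differential ran from -1.80 (30 h replicate 2) and -1.33 (24 h replicate 5) to 1.42 (24 h replicate 2), 1.11 (12 h replicate 2) and 0.98 (24 h replicate 3). At 24 h, the 5 pairs gave 0.06, 1.42, 0.98, 0.20 and -1.33. At 30 h, they gave 0.41, -1.80, 0.13, -0.28 and -0.09. Pairs of the same treatment and time thus lay on both sides of 0, and the group mean was above 0 in 15 of the 29 pairs. The sign was shared across the group, with all 77 probes on 1 side of 0 in 30 h replicate 2, 24 h replicates 2, 3 and 5, 18 h replicates 1, 3 and 5, 12 h replicates 2, 3, 4 and 5 and 2 h replicates 1 and 5. These pairs were all among the 29 whose correlations formed the group, which makes a shared sign there likely. Over all 41 pairs, arrays a and b had the same sign in 31. In the 14 pairs whose group mean was at least 0.5 from 0, they had it in 14. A large mean of both arrays makes a shared sign likely, and all 14 were among the 29 pairs used for the choice. In the pairs not used, the signs differed only in 4 h replicate 2 (0.29 and -0.33) and replicate 3 (-0.42 and 0.06).

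**Figure D3:**
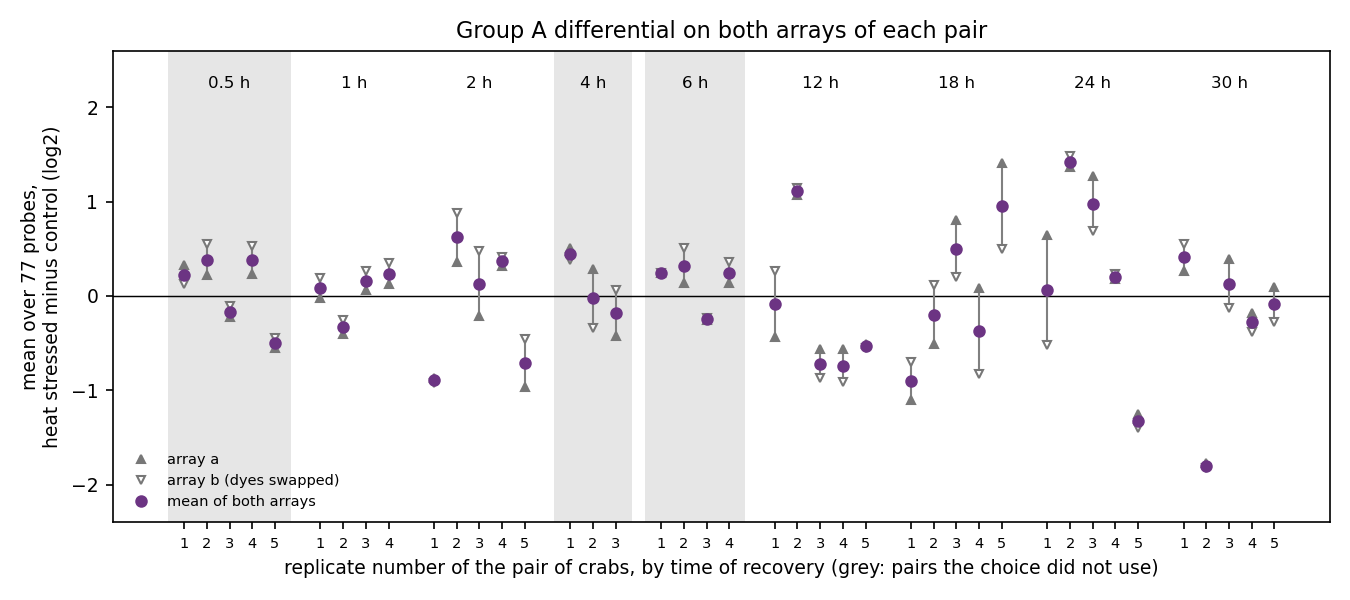
The horizontal axis lists the 41 pairs of crabs by time of recovery and replicate number, and the vertical axis gives the mean differential of the 77 probes of group A in log2 units; triangles are the 2 arrays of a pair and circles their mean, with the pairs not used for the choice shaded. The means run from -1.80 to 1.42, both arrays fall on the same side of 0 in each pair beyond 0.5, and the shaded pairs stay between -0.50 and 0.44.

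The 12 pairs not used showed the same probes moving together within a narrower range. The group A mean was 0.22, 0.39, -0.17, 0.38 and -0.50 in the 5 pairs of 0.5 h, 0.44, -0.02 and -0.18 in the 3 pairs of 4 h, and 0.25, 0.32, -0.25 and 0.25 in the 4 pairs of 6 h. At 0.5 h, 77, 74, 11, 76 and 1 of the 77 probes were above 0 in replicates 1 to 5, so that most of the group sat on 1 side in each pair. The SD of the group mean was 0.31 over these pairs and 0.73 over the 29. The median correlation between 2 probes of the group was 0.73 over the 12 pairs and 0.90 over the 29, and each of the 2926 correlations between probes was above 0 over the 12 pairs (lowest 0.04). Without 0.5 h replicate 5, the median correlation was 0.66. All these correlations come from the same arrays. In the F-test, 32 of the 77 passed, beside 11.5% of all probes and 22.5% of probes above the median level.

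Levels ranged widely in both treatments. The group A level of the 41 heat stressed crabs ran from 1.46 over a median of 2.38 to 3.45, and that of the 41 control crabs from 1.47 over a median of 2.44 to 3.49. Those ranges lie on top of each other. In 30 h replicate 2, the heat stressed crab was at 1.46, the lowest of its treatment, and the control crab at 3.26. In 24 h replicate 2 the order was turned, with the heat stressed crab at 3.44 and the control crab at 2.02. Of the 2 crabs of a pair, the heat stressed crab lay farther from the median of all 82 in 20 pairs and the control crab in 21. Crabs of different pairs were read on different arrays, so these levels include any difference between arrays. Over all probes, deviations of the 2 crabs of a pair from their group means correlated with a median r of 0.75. Which crab lies farther thus also depends on any shift that both share.

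Pc01Hh10 had the largest SD of all 13818 probes over the 29 pairs (1.66). In 30 h replicate 2 its level was 0.17 in the heat stressed and 4.24 in the control crab, a differential of -4.07 or 16.8-fold less in the heat stressed crab. In 24 h replicate 2 the levels were 5.37 and 2.17, a differential of 3.20 or 9.20-fold more. The extremes of this probe thus fell at neighbouring time points and in opposite directions. At 24 h its differentials were 0.79, 3.20, 2.54, 1.21 and -3.94, and at 30 h 0.63, -4.07, 0.55, -2.23 and -0.57. Over the 12 pairs not used, the differentials of Pc01Hh10 were 0.58, 0.47, -0.00, 0.73 and -0.68 at 0.5 h, 0.99, -0.07 and -0.09 at 4 h, and 0.87, 1.28, -0.54 and 1.03 at 6 h. At 6 h, 3 of 4 pairs stood near 1 and 1 below 0 by the titles. By the description, 6 h replicates 3 (-0.54) and 4 (1.03) have the opposite treatment, which would turn both signs. Over the 12 pairs, the differentials of Pc01Hh10 differed beyond the arrays (limma F = 7.19, adjusted p = 0.00623), though not without 6 h replicate 3 (adjusted p = 0.0664).

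**Figure D4:**
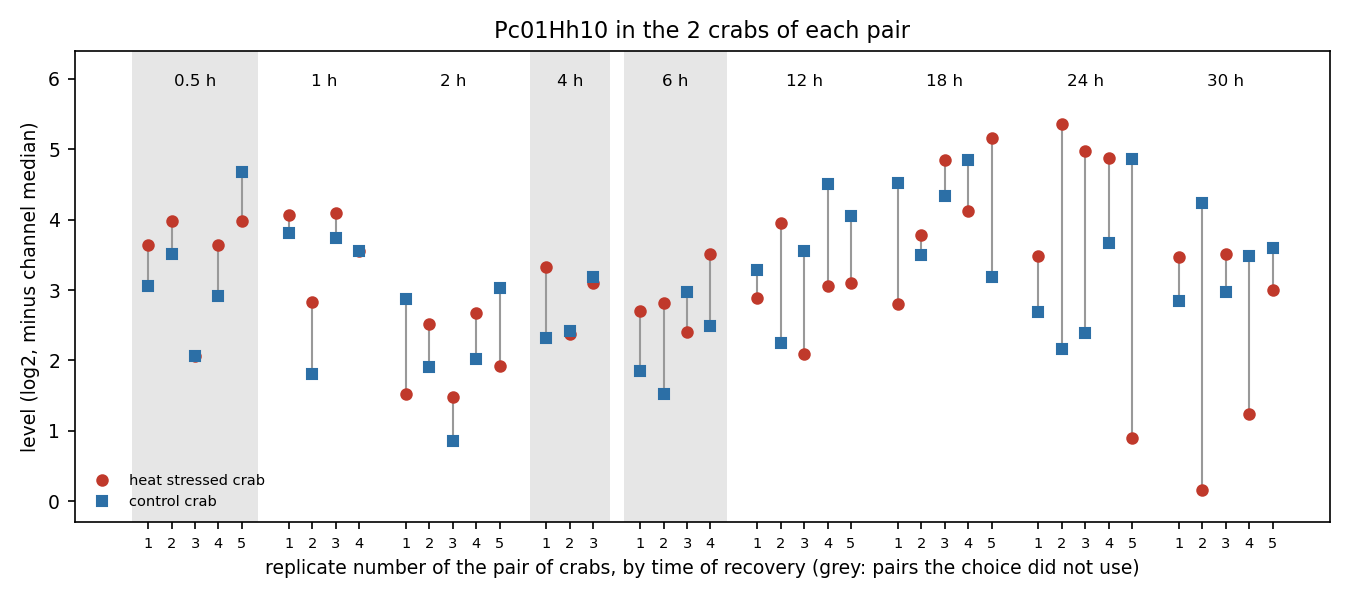
The horizontal axis lists the 41 pairs of crabs by time of recovery and replicate number, and the vertical axis gives the level of probe Pc01Hh10 in log2 units above the channel median, with a line joining the heat stressed (red circle) and control crab (blue square) of a pair. The order of the 2 crabs changes from pair to pair, with the longest lines at 24 and 30 h, where the heat stressed crab reads 0.90 in 24 h replicate 5 and 0.17 in 30 h replicate 2.

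The heat stressed crabs read from 0.17 over a median of 3.10 to 5.37 at Pc01Hh10, and the control crabs from 0.86 over a median of 3.06 to 4.86. The neighbouring well holds Pc01Hh09, of rank 3 with an SD of 1.44, whose differentials followed those of Pc01Hh10 with r = 0.99 over the 29 pairs and 0.96 over the 12. Its extremes were -3.32 in 30 h replicate 2 and 2.67 in 24 h replicate 2, and its adjusted p in the F-test was 0.0013. Whether adjacent wells hold copies of a transcript is not given in the sources used here.

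Pc07Wl12, on another plate, ranked second with an SD of 1.47 and ran from -3.59 in 24 h replicate 5 to 2.66 in 24 h replicate 2. In the 12 pairs its differentials lay between -0.77 and 1.05, with the largest F of the 12 leading probes (11.7, limma adjusted p = 0.000504). Pc03Np16, on a different plate again, had nearly the same F (11.6, adjusted p = 0.000524) and a range of -0.99 to 0.76 over the 12 pairs, after -2.54 to 2.31 over the 29.

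Of the 12 probes with the largest SD, 11 belonged to group A, and they followed a course of their own in a few pairs. In 1 h replicate 2 all 11 were above 0 (mean 0.58), whereas 65 of the 77 probes of the group were below 0. In 30 h replicate 4, Pc01Hh10, Pc07Wl12 and Pc01Hh09 stood at -2.23, -2.05 and -2.07, whereas the mean of the whole group was -0.28. Over the 41 pairs, the means of the 11 and of the other 66 had the same sign in 37, with the 11 farther from 0 in 32 of these and nearer in 5. They had opposite signs in 4 pairs, among them 18 h replicate 2 (0.14 and -0.26). Both means correlated at r = 0.90 over the 29 pairs and at 0.86 over the 12, with SDs of 0.49 and 0.28 over the latter. Of the 12 leading probes, 10 passed the F-test (background 11.5%), and Pc23Pn04 (adjusted p = 0.258) and Pc06Wj01 (adjusted p = 0.238) did not. Pc07Wl12, Pc01Hh09, Pc03Np16, Pc30Hh20 and Pc05Wb04 passed with any single pair left out. Pc01Hh10, Pc27Gj09, Pc03No07, Pc08Hg15 and Pc03Nl12 were lost without 6 h replicate 3, where the adjusted p of these 5 lay between 0.0517 (Pc03Nl12) and 0.203 (Pc03No07). Pc08Hg15 was also lost without 6 h replicate 2 (0.0572) or 4 (0.0531), and Pc23Pn04 was gained without 4 h replicate 3 (0.0335). Title and description disagree on treatment for 6 h replicates 3 and 4.

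The middle of group A is represented by Pc33Hb24, Pc33Hm23 and Pc08Hg14, the 3 probes with the highest mean correlation with the rest of the group (0.93 each over the 29 pairs). Pc33Hb24 ran from -1.53 to 1.30 over the 29 pairs and from -0.52 to 0.74 over the 12, with an adjusted p of 0.00829 in limma's F-test. Pc08Hg14 had an adjusted p of 0.023 and Pc33Hm23 of 0.0926. Without 0.5 h replicate 5 these calls were lost (Pc33Hb24 at 0.0532 and Pc08Hg14 at 0.136), and that of Pc33Hb24 also without 0.5 h replicate 4 (0.0844). At the quiet end, Pc08Ho08, Pc04Nf12 and Pc29Ge15 had the smallest SDs of the 100 over the 12 pairs (0.164, 0.232 and 0.239). Pc08Ho08 was thus below the median probe (0.201) where it had not been chosen, after an SD of 0.649 over the 29 pairs.

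Group A reached well past the probes chosen. Another 544 probes followed its mean with r of at least 0.8 over the 29 pairs, 534 of them within the limits on the 3 averages, and their median correlation with the group mean over the 12 pairs was 0.65, with 414 at 0.5 or more. The median over all probes was -0.08. Without 30 h replicate 2, 420 of the 544 stayed at 0.8 or more, and without 0.5 h replicate 5 the median over the pairs not used was 0.60. The 6 probes left out by name were not among them (0 of 6). Group A was bright, with a median level of 2.75. The mean of the 3383 other probes among the brightest 25% had an SD of 0.04 over the 29 pairs and 0.05 over the 12. Its correlation with the group A mean was -0.36 and -0.31. Such a mean cannot show whether some of the bright probes swing, and the part of brightness was not tested.

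Group B was made of 7 probes, all on plates 17 and 23, whose names carry the plate letter P. Of all 13818 probes, 16.6% sat on plates of that letter, as did 1498 of the 11993 that the choice could take. Of the 77 probes of group A, 0 did. The group mean was lowest in 30 h replicate 4 (-1.61) and 2 h replicate 1 (-1.50) and highest in 30 h replicate 5 (1.26) and replicate 2 (1.06). At 24 h, all 5 pairs were below 0 (-1.09, -0.13, -0.52, -0.26 and -0.30), and at 30 h they gave -0.40, 1.06, 0.66, -1.61 and 1.26. Its pairs differed from those of group A: 30 h replicate 2 was the lowest pair of group A and among the highest of group B, and over the 29 pairs the 2 group means correlated at r = 0.06.

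In the 12 pairs not used, the group B mean was -0.20, -0.42, -0.12, -0.45 and 0.91 at 0.5 h, -0.06, -0.41 and 0.15 at 4 h, and 0.58, 0.69, -0.15 and -0.16 at 6 h. Replicate 5 of 0.5 h stood above 0 with all 7 probes, while the other 4 pairs of that time point were below 0. The median correlation between its probes was 0.88 over the 12 pairs, 0.79 without 0.5 h replicate 5, and 0.96 over the 29. Even so, 2 of the 7 passed the F-test (background 11.5%). Over the 12 pairs, the arrays of a pair disagreed more here than in group A, with a median array SD of 0.325 beside 0.198. Over the 29 pairs they disagreed less, with 0.204 beside 0.309. Group C, of which 5 of 6 probes passed, had a median array SD of 0.315 over the 12 pairs. Whether the array SD bears on the calls in group B was not tested. The leading probes Pc17Po12, Pc23Pn03 and Pc17Pj19 did not pass (limma adjusted p = 0.216, 0.133 and 0.136), whereas Pc17Pc18, with differentials from -0.60 to 1.37, had an adjusted p of 0.0318, which did not hold without 0.5 h replicate 4 (0.0576) or 5 (0.217) or 6 h replicate 2 (0.0899) or 4 (0.0809).

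Pc23Pn04, the only probe of group B among the 12 leading ones, ran from -2.05 in 30 h replicate 4 to 2.27 in 30 h replicate 2. Its level lay between -0.61 and 3.11 in heat stressed crabs and between -0.50 and 2.14 in control crabs, with medians of 0.67 and 0.73. Its neighbour Pc23Pn03 followed it with r = 0.97 over the 29 pairs and 0.86 over the 12.

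Group C held 6 probes, 4 with plate letter P and 2 with plate letter W, led by Pc23Po08, Pc17Pf20 and Pc17Pc13. Its mean was lowest in 1 h replicate 1 (-1.74), where the heat stressed crab stood at 0.51 and the control crab at 2.25, and highest in 1 h replicate 2 (0.91), where they stood at 1.91 and 1.00. Here too the order of the 2 crabs was turned between pairs of a time point. In the pairs not used, the mean was -0.19, 0.29, -0.28, 0.18 and -0.74 at 0.5 h, -0.82, -0.60 and -0.02 at 4 h, and -0.11, 0.59, 0.11 and -1.22 at 6 h. By the titles, the 4 h mean was below 0 in 3 of 3 pairs, and heat stress was not called there. Replicate 2 of 4 h has the opposite treatment in the description, which would turn its sign. In replicate 3 of 4 h, arrays a and b gave -0.46 and 0.41. The probes of this group agreed at a median r of 0.84 over the 12 pairs, and 5 of the 6 passed the F-test (background 11.5%). They were led by Pc17Pf20 (F = 8.09, limma adjusted p = 0.00348), with Pc23Po08 (adjusted p = 0.0146) and Pc17Pc13 (adjusted p = 0.0304) among them. Without 6 h replicate 4, Pc17Pf20 passed (0.0447) while Pc23Po08 (0.166) and Pc17Pc13 (0.201) did not, and Pc17Pc13 was lost without 6 h replicate 2 too (0.105).

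On average, group C read higher at 24 and 30 h than at 0.5 h in both treatments. Its mean level was 1.66 in heat stressed and 1.72 in control crabs at 24 h and 1.51 and 1.76 at 30 h, beside 0.85 and 1.01 at 0.5 h. At 24 h and 0.5 h, the heat stressed crabs ran from 0.86 to 2.14 and from 0.47 to 1.38. The control crabs ran from 1.37 to 2.54 and from 0.87 to 1.22. No test of time was made, and the share of all probes that shift likewise was not counted. Crabs of different times were read on different arrays.

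Group D rested on 2 control crabs. Its 6 probes (Pc34Hi11, Pc01Hm05, Pc01He18, Pc01Hl04, Pc03Nn11 and Pc25Cd23) had a mean level of 2.74 in the control crab of 18 h replicate 5 and of 3.09 in the control crab of 6 h replicate 4, and the heat stressed partners read 0.20 and 0.85. All other control crabs lay at or below 1.10 and all heat stressed crabs at or below 1.08, with medians of 0.29 and 0.35 over each treatment. The differential of the group was -2.58 and -2.24 in these pairs and between -0.57 and 0.70 in the other 39. Pair 18 h replicate 5 was among the 29 used for the choice and carried between 53.9% and 75.1% of the squared deviations of each probe, and without it the SD of the 6 probes lay between 0.30 and 0.44, below the last chosen probe.

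**Figure D5:**
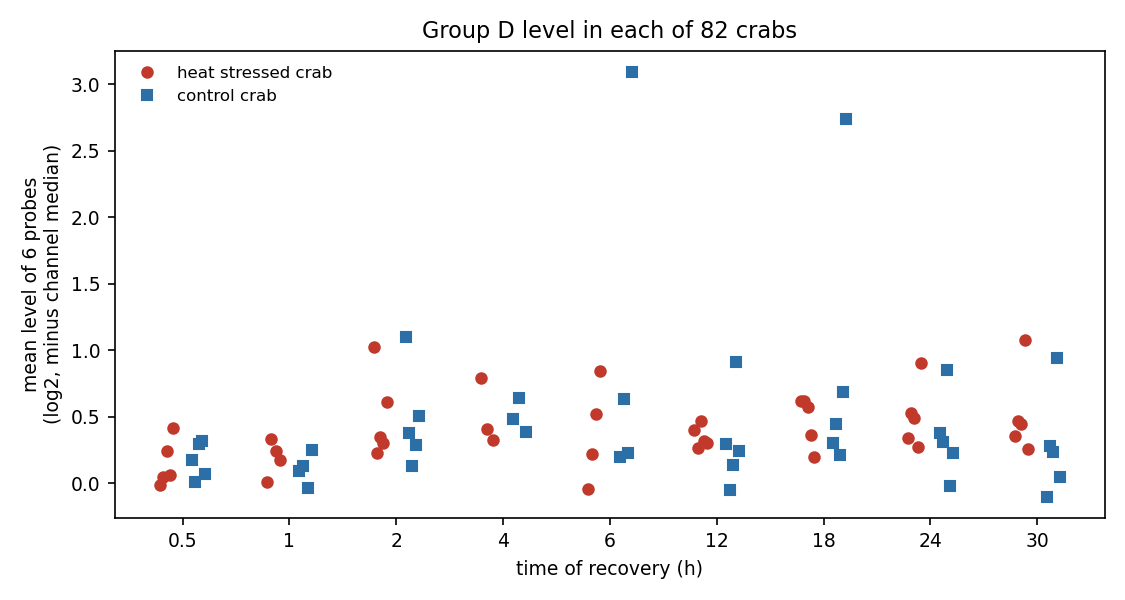
The horizontal axis gives the time of recovery and the vertical axis the mean level of the 6 probes of group D in log2 units above the channel median; each point is 1 crab, red circles heat stressed and blue squares control. The control crabs of 6 h replicate 4 (3.09) and 18 h replicate 5 (2.74) stand apart, and the other crabs lie at or below 1.10.

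The high crab of 6 h came from a pair that the choice did not use. It belongs to 1 of the 3 pairs whose title and description disagree on treatment, and by the description the high crab would be the heat stressed one. The part of that disagreement in the group D values was not tested. In 6 h replicate 4, the differentials of Pc01Hm05, Pc01He18 and Pc01Hl04 were -3.41, -3.60 and -3.44, and those of Pc34Hi11, Pc03Nn11 and Pc25Cd23 -0.97, -1.26 and -0.75. The first 3 probes, all from plate 1, thus stood lowest together.

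Their F values were the 3 highest of the 100 probes, with 25.3 for Pc01Hm05 (limma adjusted p = 1.35e-05), 15.8 for Pc01He18 (adjusted p = 0.000107) and 12.5 for Pc01Hl04 (adjusted p = 0.000356). Without 6 h replicate 4, these 3 calls were lost (adjusted p = 0.496, 0.331 and 0.648 for Pc01Hm05, Pc01He18 and Pc01Hl04). Pc03Nn11 passed with that pair (adjusted p = 0.0113) and without it (0.0479). Over the 12 pairs, 4 of the 6 probes passed (background 11.5%). The median correlation between the probes was 0.70 over those pairs and 0.52 without 6 h replicate 4, and the SD of the group mean was 0.68 and 0.27. Another 160 probes followed the mean of group D at r of at least 0.8 over the 29 pairs, 52 of them outside the limits on the averages, and their median correlation with it over the 12 pairs was 0.92. Without 18 h replicate 5, 0 of the 160 kept an r of 0.8 (median 0.57), and without 6 h replicate 4 the median over the pairs not used was 0.57 too.

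Among the 4 probes in no group, Pc05Wa08 had differentials of -2.35 in 6 h replicate 4 and -1.76 in 4 h replicate 2, both pairs with conflicting labels, and -1.52 in 0.5 h replicate 1, against 1.02 in 6 h replicate 2. It alone of the 4 passed the F-test (F = 9.17, adjusted p = 0.00188), though not without 6 h replicate 4 (adjusted p = 0.0643). The others, Pc25Cn09, Pc27Go17 and Pc35Hn18, had SDs of 0.45, 0.38 and 0.55 over the 12 pairs. Pc35Hn18 had an array SD of 0.80 over the 29 pairs, above its SD between pairs of 0.67, the only 1 of the 100 for which arrays disagreed by more than pairs.

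Heat stress itself was tested per probe with limma over all 82 crabs in 18 groups of treatment and time. At 0.5, 4 and 6 h, 0 of the 100 probes and 0 of all probes (background 0%) were called at an adjusted p under 0.05, whether or not the fit held the replicate number as a block. Without adjustment and without the block, 0 of the 100 were under 0.05 at each of these times, beside 19, 1 and 24 of all probes, and with the block 0, 0 and 3 of the 100, beside 487, 332 and 672. At 0.5, 4 and 6 h the median difference of the 100 probes, heat stressed minus control, was 0.04, 0.05 and 0.11. These medians changed with the channels used. From the Cy5 channels alone they were 0.28, 0.20 and 0.45, beside 0.16, 0.13 and 0.17 for all probes. From the Cy3 channels alone they were -0.15, -0.16 and -0.25, beside -0.14, -0.15 and -0.16 for all probes. With a single dye, both crabs of a pair are read on different arrays, so dye and array cannot be told apart there.

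For Pc01Hh10 the difference at 6 h was 0.66 with a standard error of 0.65 (limma adjusted p = 1), and at 0.5 h it was 0.22 with a standard error of 0.58. A change of 1 log2 unit at this probe would thus lie within 2 standard errors, and the missing calls do not show that heat left the probes alone. At 1, 2, 12, 18, 24 and 30 h, the times used for the choice, 0 of the 100 were called in either fit, which is read here only as a description. Of all probes, 0.116%, 0.101%, 0.0579%, 0.188%, 0.109% and 0.123% were called at these times without the block. With the block, 0.666%, 0.427%, 0.0507%, 0.579%, 0.608% and 1.61% were called.

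Levels spread from crab to crab in both treatments. Crabs of different pairs were read on different arrays, so this spread includes any difference between arrays. Within time points, the SD of the level had a median of 0.61 over the 100 probes in heat stressed and 0.63 in control crabs, and was larger in heat stressed crabs for 46 of the 100, beside 46.6% of all probes. The groups differed in this: all 7 probes of group B spread more in heat stressed crabs, and 5 of the 6 of group D in control crabs, the treatment that holds the 2 high crabs of that group. These differences in spread were not tested.

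On the printed plates, the probes came from 24 of 36 plates, with 12 on plate 6, 11 on plate 5 and 8 on plate 27. By plate letter, 28 of the 100 carried W and 11 carried P, beside 16.7% and 16.6% of all probes, and 31 carried H, beside 36.1%. Of the 11993 probes that the choice could take, 2133 carried W, 1498 carried P and 4581 carried H. Among the 100 were 6 pairs in adjacent wells, and both probes of a pair were in the same group in 6 of 6. As 77 of the 100 are in group A, a shared group is common among any 2 of them. Any 2 probes of group A had a median r of 0.90 over the 29 pairs and 0.73 over the 12. The weakest correlation of the 6 adjacent pairs over the 29 pairs of crabs, 0.83, was between Pc05Wb04 and Pc05Wb05 (0.88 over the 12). Over the 12 pairs it was 0.81, between Pc08Hg14 and Pc08Hg15.

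The last probes taken and the first left behind differed by little. Pc28Ge05 and Pc25Ca09 closed the list with SDs of 0.6153 and 0.6145, and Pc35Ho04 and Pc06Wa05 followed outside it with 0.6140 and 0.6138. Over the 12 pairs, these 4 probes had SDs of 0.377, 0.317, 0.573 and 0.242, so that a probe just outside exceeded both probes just inside.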

How the data were processed

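The values deposited by the authors were log2 intensities that they had already processed, for 13818 probes in the 164 channels of 82 arrays. The scale was taken as log2 from the paper's tool and from channel maxima of 15.1 to 16.6. The authors' background correction and normalization are not given in the sources used here, and the number of arrays limits the precision. Groups came from the sample titles. The 100 probes and the ways of grouping and testing them were chosen with earlier results of these data known.

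From these values, array and pair differentials were formed, and both dyes of a crab were averaged for levels. Variation between pairs was tested on the 24 array differentials of 0.5, 4 and 6 h with the moderated F-test of limma 3.58.1 under R 4.3.3, of pairs within time points with a dye term. Heat stress was tested on 82 crabs in 18 groups. Deviations from the group means correlated between the crabs of a replicate number in 41 of 41 pairs (r from 0.44 to 0.94, median 0.75). The crabs of a number share arrays, so the numbers pair them. Groups of probes came from average linkage on 1 minus Pearson's r in Python 3.11.15 with scipy 1.17.1, numpy 2.4.6, pandas 2.3.3 and matplotlib 3.10.9. Both fits were checked on simulated data.

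Probes named are the 12 with the largest SD, those at the edge of the list, 3 leading probes per group, the 3 largest and 3 smallest SDs over the unused pairs, and any called for heat (none was). Pc34Hi11, Pc25Cd23, Pc17Pc18, Pc05Wb05, Pc05Wa08, Pc25Cn09, Pc27Go17 and Pc35Hn18 lie outside this rule and were chosen after their values were seen. Alternatives covered the dye term, centring, loess, eBayes settings, dim probes, time points, the description's treatment, single replicates, the block, and the limits and spread measure of the choice.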

Additional observations from a re-analysis of the deposited data

Results flagged for a closer look

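In sets of 4 or 5 pairs or crabs of a group at a time point, a value was singled out where its gap to the nearest other value took up most of the whole range. Of 96 such sets, 10 held such a value, and 7 of the 10 lay at time points used to choose the probes by their spread. Chance gives such a value in about 1 in 20 sets of unselected data, which is no measure for probes chosen in this way, so the values are given as a description.

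In group A, the mean differential of 6 h replicate 3 was -0.246, whereas the other 3 pairs lay between 0.248 and 0.320. These signs follow the titles. By the description, 6 h replicates 3 and 4 have the opposite treatment, which would turn the signs of both. The heat stressed crab of 30 h replicate 2 had a group A level of 1.46, below the 2.09 to 2.34 of the other 4. In group B, the differential of 0.5 h replicate 5 reached 0.909, against -0.451 to -0.120 in the other 4 pairs.

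In group C, the control crab of 24 h replicate 2 had a level of 2.54, above 1.37 to 1.64 in the others, and the heat stressed crab of 30 h replicate 2 had 2.28, above 1.20 to 1.42. The latter is the same crab that was lowest in group A at that time.

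In group D, the control crab of 6 h replicate 4 had a level of 3.09, above 0.198 to 0.633, and the control crab of 18 h replicate 5 had 2.74, above 0.213 to 0.687. The differential of 18 h replicate 5 was -2.58, below -0.332 to 0.345. At 30 h, replicate 1 had a differential of 0.461, above 0.155 to 0.232, and the heat stressed crab of replicate 4 had a level of 1.08, above 0.259 to 0.470.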

How the results depend on the processing

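The count of chosen probes whose pairs differed in limma's F-test (44, with 1589 of all probes) was 21 (764) without the dye term, 17 (1080) without the 0.5 h pairs, 0 (0) without the 6 h pairs and 2484 over all probes without the 4 h pairs. With single pairs left out it ran from 22 (0.5 h replicate 5) to 55 (4 h replicate 3), with 580 (6 h replicate 4) to 2045 over all probes, and without 6 h replicates 2 and 4 in turn it was 31 (795) and 23 (580). Without 4 pairs together (0.5 h replicate 5, 4 h replicates 1 and 3, 6 h replicate 1, left out after the values were seen) it was 34 (1778). Of 20 named probes called, 20 were lost without the 6 h pairs, and 6 were called under every other alternative. Heat stress called 0 of the 100 at 0.5, 4 and 6 h under every alternative, the replicate block included. Over all probes, where 0 were called, single pairs of crabs left out gave 0 to 6 calls at 0.5 h and 0 to 15 at 6 h. With the replicate block as well, added after the values were seen, the count was 35 without 0.5 h replicate 5, then 11, 2 and 4 without 4 h replicates 1, 2 and 3, and 71, 3 and 1 without 6 h replicates 1, 2 and 3. The block alone changed no call at these 3 times. Of the 100 probes, 51 stayed with averages limited to 0.15, 39 with 0.5, 48 from array a and 45 from array b alone, 69 with a median absolute deviation, and 44 to 75 with 1 replicate number left out (fewest without replicate 2, and 54 without replicate 5). The median SD over the 12 pairs lay between 0.326 and 0.387 under all alternatives run, beside 0.360. The causes were not tested. Arrays of the same RNAs set the error of the F-test, and 3 to 5 crabs per group limit the test of heat.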
